A study of Arabidopsis thaliana with 8 samples.

Results

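Transcripts that differed between *hy5-1* and its wild type whatever the light and the hormone treatment were picked from the arrays of whole seedlings. Wild-type *Ler* (Landsberg *erecta*) was compared with *hy5-1*, a *HY5* mutant in the same background, after 4 days in continuous far-red (FR) light of 1.5 μmol per m2 and s, or in darkness. Seedlings grew on medium with 50 μM methyl jasmonate (MeJA) or without it. Each of the 8 combinations was measured on 1 Affymetrix ATH1 array, which gives 4 pairs of arrays that match in light and MeJA and differ in genotype. A probe set is a group of short probes that together read 1 transcript or more. It was taken when its log2 ratio of *hy5-1* to *Ler* was at least 1, or at most -1, in all 4 pairs. This rule left 59 of 22746 probe sets (0.259%), of which 36 were higher in *hy5-1* (0.158% of all probe sets) and 23 were lower (0.101%). The ratios chose these probe sets, so they are given as a description without a test.

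HY5 is a bZIP transcription factor that binds promoter elements with an ACGT core and promotes photomorphogenesis, the change of a seedling from growth in the dark to growth in light. In darkness the protein is marked for degradation by the ubiquitin ligase COP1, and light allows it to accumulate. It acts in pathways of light and hormone signaling, and its homolog HYH shares part of its role. Jasmonates such as MeJA act through the MYC transcription factors, which are held back by JAZ repressors until the hormone is perceived. No probe set was paired with *HY5* here, so the mutation itself was not checked on the arrays. The deposited log2 values are centred on the median of the 4 arrays of each light. They hold neither the level of a transcript nor its difference between FR light and darkness, and the tissue could not be checked by the level of marker genes. No condition was replicated, so a ratio of a single pair has no replicate check. The SD given below is the spread over the 4 pairs.

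The probe sets with a shared direction were few beside those that differed in a single pair. Under FR light without MeJA, 9.19% of probe sets were at least 2-fold higher in *hy5-1* and 6.85% were at least 2-fold lower. These shares were 8.92% and 9.09% under FR light with MeJA, 9.64% and 7.68% in darkness, and 9% and 8.06% in darkness with MeJA. Past 2-fold in all 4 pairs, in any direction, were 469 probe sets (2.06%). Their 4 ratios can form 16 patterns of direction, of which 2, or 12.5%, have a single direction, and 59 of the 469 probe sets, or 12.6%, had one. The other 14 patterns held between 18 and 43 probe sets each, with a median of 27.5. Thus the pattern higher in all 4 pairs, with 36, and the pattern lower in all 4, with 23, both lay within the range of the mixed patterns. Across the 22746 probe sets the ratios of any 2 pairs correlated with a Pearson's r between 0.00632 and 0.0805, given as a description because probe sets are no replicates. No array is shared between pairs. In a linear model over the 4 pairs (limma), 0 probe sets (0%) passed for genotype after Benjamini-Hochberg adjustment at 0.05, while 1553 had an unadjusted p below 0.05. The error term of this model holds differences of the genotype ratio between lights and MeJA doses. A genotype effect that depends on light or MeJA is therefore hard to call, and 0 calls does not show that there was none. None of the 64 control probe sets met the rule, which says little, as only 0.259% of the other probe sets did.

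**Figure D1:**
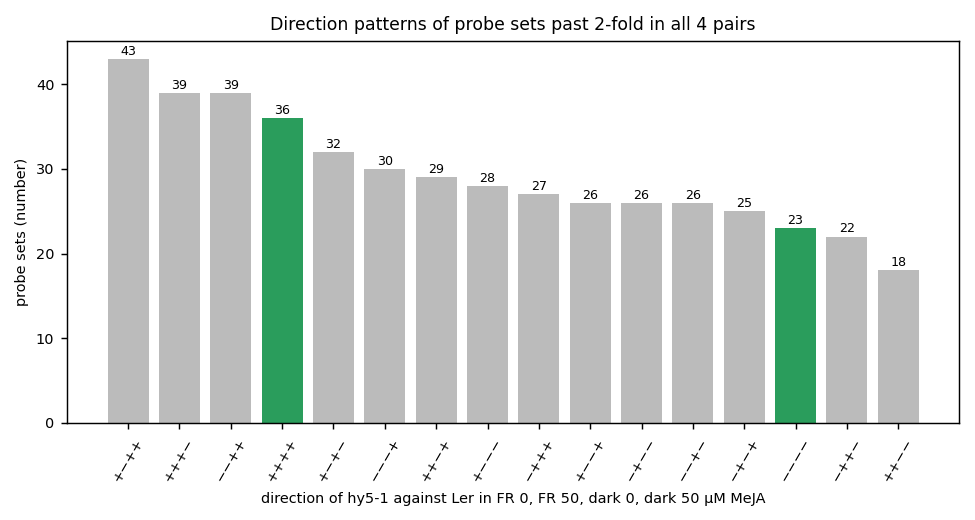
Number of probe sets (vertical axis) in each of the 16 patterns of direction (horizontal axis, + for higher and − for lower in *hy5-1*, in the order FR, FR with MeJA, dark, dark with MeJA), among the 469 past 2-fold in all 4 pairs. The green bars are the patterns of a single direction, with 36 and 23 probe sets, and the grey bars are the mixed patterns, with 18 to 43.

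Among the 36 higher probe sets the mean ratio over the 4 pairs ran from 1.17 to 5.71, with a median of 2.17, or 4.49-fold. Among the 23 lower ones it ran from -1.32 to -3.72, with a median of -2.52, or 5.72-fold. The 4 ratios of a probe set often lay far apart. Their SD had a median of 0.90 among the higher and 0.76 among the lower probe sets, and reached 1.45 and 1.49. A smallest ratio of at least 1.5 in size was found for 10 of the higher and 11 of the lower probe sets, and one of at least 2 for 2 and 4. Close to the threshold, with a smallest ratio under 1.2 in size, were 16 of the 36 and 7 of the 23. Of the 59 probe sets, 37 were paired with 1 gene, 24 of them higher and 13 lower. The other 22 were not listed in the array annotation used here and are given by their probe set number.

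**Figure D2:**
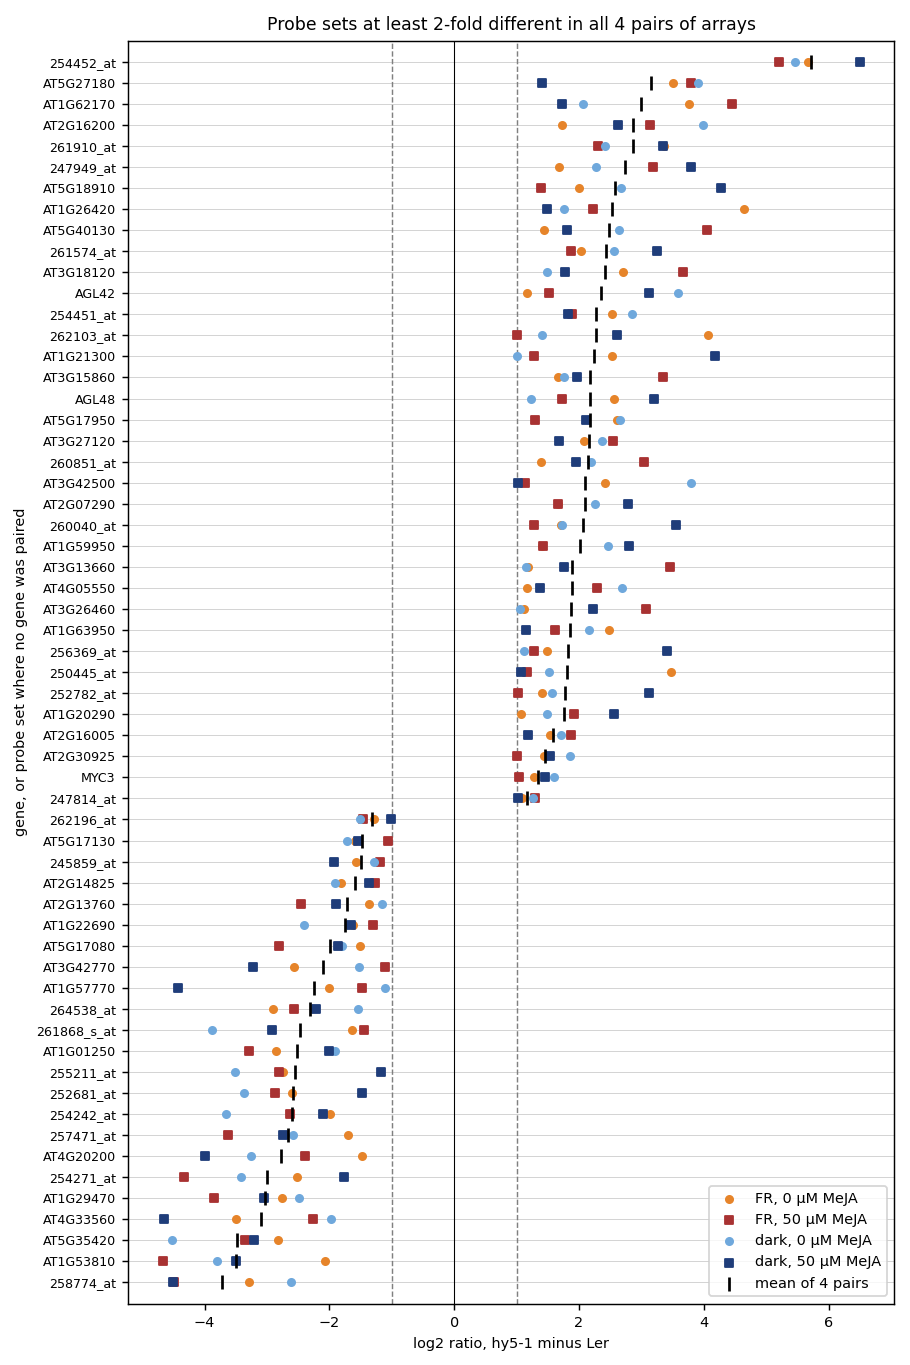
Log2 ratio of *hy5-1* to *Ler* (horizontal axis) in each of the 4 pairs of arrays for all 59 probe sets (vertical axis), with the mean of the 4 pairs as a black tick and dashed lines at 1 and -1. The probe set 254452_at stands apart at a mean of 5.71, and the 4 points of *MYC3* lie close together between 1.03 and 1.60.

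The most distinct probe set was 254452_at, which ranked first among the higher probe sets by both its mean and its smallest ratio. Its centred log2 values under FR light were -2.67 and -2.60 in *Ler* without and with MeJA, against 3.00 and 2.60 in *hy5-1*. In darkness they were -2.45 and -4.04 in *Ler* and 3.00 and 2.45 in *hy5-1*. All 4 *hy5-1* arrays lay above the *Ler* arrays of the same light by at least 4.90. The ratios were 5.67, 5.21, 5.46 and 6.49 in the order FR, FR with MeJA, dark and dark with MeJA, with a mean of 5.71 ± 0.56 (SD, n = 4 pairs), or 52.2-fold. The probe set with the adjoining number, 254451_at, was also higher, with a mean ratio of 2.27 ± 0.50 (SD, n = 4 pairs) and a smallest ratio of 1.82. Neither was paired with a gene, so no identity is given to them. These and the other unlisted probe sets given by number below were singled out after their values had been seen. Another unlisted probe set, 261910_at, had a mean ratio of 2.86 ± 0.58 (SD, n = 4 pairs) and was the only other one among the 36 with all ratios over 2.

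*MYC3*, which encodes a bHLH transcription factor of jasmonate signaling, was the only higher gene from the lists of light, hormone and metabolic pathways. Under FR light its centred values were -0.62 in untreated and -0.52 in treated *Ler*, against 0.66 and 0.52 in *hy5-1*. In darkness *Ler* had -0.98 and -0.62 and *hy5-1* had 0.62 and 0.83. The genotypes did not overlap in either light. The mean ratio was 1.34 ± 0.24 (SD, n = 4 pairs), or 2.53-fold, which is small among these genes, and the SD was the lowest of the 24 named higher genes. The lowest of its 4 ratios, 1.03 under FR light with MeJA, lay just past the threshold and was 0.98 after quantile normalization, by which *MYC3* would not meet the rule. Its relative *MYC4*, a bHLH gene of the same pathway, had ratios of 0.47, 0.65, -0.50 and 0.55 in the order FR, FR with MeJA, dark and dark with MeJA, the usual order below, and did not meet the rule.

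*HYH*, the homolog of *HY5*, came close to the rule from the other side. It was lower in *hy5-1* in all 4 pairs, at -0.92 and -1.30 under FR light without and with MeJA and at -5.98 and -5.26 in darkness, so the untreated FR pair alone kept it out. *FHL*, whose protein helps phytochrome A to enter the nucleus, had ratios of 0.86, -0.13, -0.90 and -0.04. *JMT*, the gene of jasmonic acid carboxyl methyltransferase, reached 2.91 and 4.72 in the untreated FR and treated dark pairs but had -1.03 and 0.12 in the treated FR and untreated dark pairs. *BGLU28*, a beta-glucosidase gene, had 0.12, 1.32, 5.52 and 0.23 in the usual order and did not meet the rule either.

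*AGL42* and *AGL48*, both MADS-box genes, were among the higher genes, and how many genes of the family were measured was not counted. The proteins of this family are transcription factors, many of them known from flower development. *AGL42*, also called *FOREVER YOUNG FLOWER*, had ratios of 1.16 and 1.52 under FR light without and with MeJA and of 3.58 and 3.12 in darkness, with a mean of 2.34 ± 1.19 (SD, n = 4 pairs). Its dark values were -0.81 and -2.31 in *Ler* without and with MeJA, against 2.77 and 0.81 in *hy5-1*, and its FR values were -0.98 and -0.18 against 0.18 and 1.33. The genotypes were separate in both lights, by 1.62 in darkness and by 0.36 under FR light. After quantile normalization its smallest ratio was 0.99, just short of the rule. *AGL48* had ratios of 2.56, 1.73, 1.23 and 3.19 in the order FR, FR with MeJA, dark and dark with MeJA, with a mean of 2.18 ± 0.87 (SD, n = 4 pairs). Both *hy5-1* arrays lay above both *Ler* arrays in either light for this gene too. The other MADS-box genes in the lists, *AGL18*, *AGL65*, *AGL66* and *AGL104*, did not meet the rule. *AGL18* had ratios of 0.23, 0.55, 0.07 and 0.56 in the usual order, and the ratios of the other 3 differed in direction between pairs, as for *AGL66* with 0.46, 1.15, 2.45 and -3.37.

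Other named higher genes came from different gene families. AT1G62170, a gene of the serpin family of protease inhibitors, had a mean ratio of 3.00 ± 1.31 (SD, n = 4 pairs), with 3.76 and 4.45 in the FR pairs and 2.06 and 1.72 in the dark pairs. AT1G26420, of the berberine bridge enzyme-like oxidases, had 4.65, 2.23, 1.75 and 1.49 in the usual order of pairs, so that the untreated FR pair set much of its mean of 2.53. In darkness the genotypes overlapped for this gene, as untreated *Ler* at 0.41 lay above treated *hy5-1* at -0.41. AT5G18910, of the protein kinase superfamily, had a mean of 2.58 ± 1.25 (SD, n = 4 pairs) and its highest ratio, 4.28, in treated dark seedlings. The aldo-keto reductase-like gene AT1G59950 had 1.40 and 1.42 under FR light, and its mean of 2.63 in darkness was higher. The dirigent-like gene AT3G13660 had ratios of 1.18, 3.46, 1.14 and 1.76, and AT3G26460, of a superfamily of lipid transport proteins, had 1.11, 3.07, 1.06 and 2.23. For AT3G26460 the smallest ratio was 0.88 after quantile normalization, which took it out of the rule.

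The 4 ratios of AT3G27120 and AT2G16005 were also close together. AT3G27120, an AAA-type ATPase gene, had ratios of 2.08, 2.54, 2.37 and 1.67 and a mean of 2.17 ± 0.38 (SD, n = 4 pairs), or 4.49-fold. Its *Ler* values were -1.63 and -0.45 under FR light and -1.46 and -0.84 in darkness, each without and with MeJA, against 0.45, 2.09, 0.91 and 0.84 in *hy5-1*. Every *hy5-1* array lay above every *Ler* array of its light. AT2G16005, which encodes a protein with an MD-2-related lipid recognition domain, had ratios of 1.54, 1.88, 1.71 and 1.18 and a mean of 1.58 ± 0.30 (SD, n = 4 pairs). AT2G16200, AT5G17950, AT3G18120 and AT2G07290, for which no role is given here, had mean ratios of 2.87, 2.17, 2.41 and 2.09. AT3G15860 followed at 2.18, AT1G63950 at 1.85, AT1G20290 at 1.76 and AT2G30925 at 1.45.

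**Figure D3:**
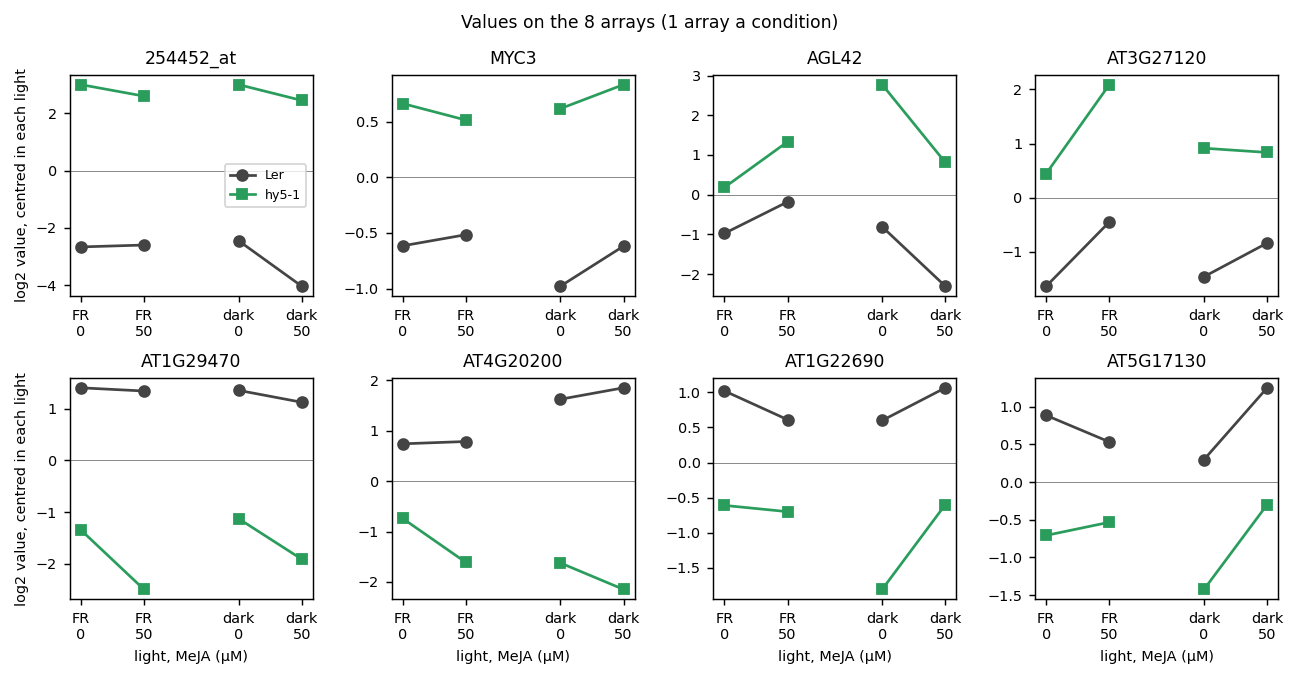
Centred log2 values (vertical axis, scaled for each panel) of 8 probe sets on the 8 arrays, with *Ler* in grey and *hy5-1* in green, under FR light and in darkness at 0 and 50 μM MeJA (horizontal axis). Each point is 1 array, and lines join the arrays of 1 genotype and light. In each panel both *hy5-1* arrays lie on the same side of both *Ler* arrays within a light, by the widest margin for 254452_at. All 8 belong to the 46 of 59 probe sets that were separate in both lights, so the overlap seen in the others is not shown.

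The lower probe sets were led by unlisted 258774_at, with ratios of -3.29, -4.49, -2.61 and -4.50 and a mean of -3.72 ± 0.93 (SD, n = 4 pairs). Among protein-coding genes, AT4G33560, of a family of wound-responsive proteins, had the lowest mean, at -3.10 ± 1.23 (SD, n = 4 pairs), with -3.50, -2.26, -1.97 and -4.64 in the usual order. AT1G29470, of a superfamily of S-adenosylmethionine-dependent methyltransferases, followed at -3.03 ± 0.59 (SD, n = 4 pairs), or 8.18-fold lower. Its *Ler* values were 1.41 and 1.35 under FR light and 1.36 and 1.13 in darkness, without and with MeJA. In *hy5-1* they were -1.35 and -2.50 under FR light and -1.13 and -1.91 in darkness. The genotypes were thus apart by at least 2.26 in each light, and all 4 ratios were at most -2.49.

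AT4G20200, AT1G01250, AT1G22690 and AT1G57770, from different gene families, were also among the lower ones. AT4G20200, a gene of the terpene cyclase family, had ratios of -1.48 and -2.40 under FR light and of -3.25 and -4.00 in darkness, with a mean of -2.78 ± 1.09 (SD, n = 4 pairs). Its values were 0.74 and 0.79 in *Ler* and -0.74 and -1.61 in *hy5-1* under FR light, and 1.62 and 1.85 against -1.62 and -2.15 in darkness. No array of one genotype reached those of the other. AT1G01250, an AP2/ERF gene, had -2.86, -3.28, -1.91 and -2.01 in the usual order and a mean of -2.52 ± 0.67 (SD, n = 4 pairs). AT1G22690, of the gibberellin-regulated family of small cysteine-rich proteins, had a mean of -1.75 ± 0.46 (SD, n = 4 pairs), with *Ler* at 1.02 and 0.61 under FR light and 0.60 and 1.06 in darkness and *hy5-1* at -0.61, -0.70, -1.80 and -0.60. The oxidoreductase gene AT1G57770 had 1 array far from the others. Its value in treated dark *hy5-1* was -4.55, which gave a ratio of -4.42, whereas the other 3 ratios were -2.00, -1.47 and -1.11. In darkness treated *Ler* at -0.12 lay below untreated *hy5-1* at 0.12, so the genotypes overlapped there.

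AT5G17080 and AT5G17130 lie near each other in the RefSeq annotation (TAIR10.1), with 5 annotated genes between them and none of those read by a named probe set. They were the only named genes of the 37 within 20 kb of each other, and both were lower in *hy5-1*. AT5G17080 had ratios of -1.51, -2.80, -1.79 and -1.86 and a mean of -1.99 ± 0.56 (SD, n = 4 pairs). AT5G17130 had -1.59, -1.07, -1.72 and -1.55 and a mean of -1.48 ± 0.29 (SD, n = 4 pairs). For AT5G17130 *Ler* had 0.88 and 0.53 under FR light and 0.30 and 1.25 in darkness, against -0.71, -0.53, -1.42 and -0.30 in *hy5-1*. AT2G14825 and AT2G13760, the latter read by 264105_x_at, were lower at means of -1.59 and -1.72, and AT3G42770 at -2.11.

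Pseudogenes made up 7 of the 37 named members, or 18.9%, against 7.36% of all 13436 named probe sets and 20.2% of the 302 named probe sets that passed 2-fold in all 4 pairs with mixed directions. Higher in *hy5-1* were AT5G27180 at a mean of 3.15, AT5G40130 at 2.49, AT1G21300 at 2.24, AT3G42500 at 2.09 and AT4G05550 at 1.88. Lower were AT1G53810 at -3.50 and AT5G35420 at -3.48, the lowest means among the named genes. AT5G35420 had ratios of -2.83, -3.35, -4.52 and -3.21 and the largest smallest ratio of all lower probe sets. A symbol of their own, rather than a locus number, was carried by 3 of the 37 (8.11%), against 11.5% of all named probe sets and 8.61% of those with mixed directions.

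In 4 of the 59 probe sets, the lowest values on 2 arrays of a light were equal within 1e-05 on the log2 scale. AT5G27180 had -1.75 on both *Ler* FR arrays and -0.70 on both *Ler* dark arrays. AT1G21300 and AT2G30925 had equal *Ler* values in darkness, at -0.50 and -0.77, and 252681_at had equal *hy5-1* values there, at -0.74. Such ties were found in 1.82% of all probe sets.

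Among the chosen probe sets, neither light had the larger ratios throughout. The rule asks for 2-fold in both lights, which can leave out probe sets that differ mainly in a single light. The counts here thus describe the chosen probe sets alone. The mean of the 2 dark ratios exceeded that of the 2 FR ratios in size for 21 of the 36 higher and 12 of the 23 lower probe sets. Median ratios were 2.07 under FR light and 2.22 in darkness among the higher ones, and -2.31 and -2.43 among the lower ones. The means of the 2 lights differed by 1 or more for 9 higher and 4 lower probe sets. *AGL42* was further apart in darkness, with a mean of 3.35 against 1.34 under FR light, as were AT5G18910, with 3.48 against 1.69, and AT4G20200, with -3.62 against -1.94. The opposite held for AT1G62170, with ratios of 3.76 and 4.45 under FR light against a mean of 1.89 in darkness, and AT1G26420, with 3.44 against 1.62. These differences rest on 2 ratios in each light and, being part of what the rule used, were not tested.

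**Figure D4:**
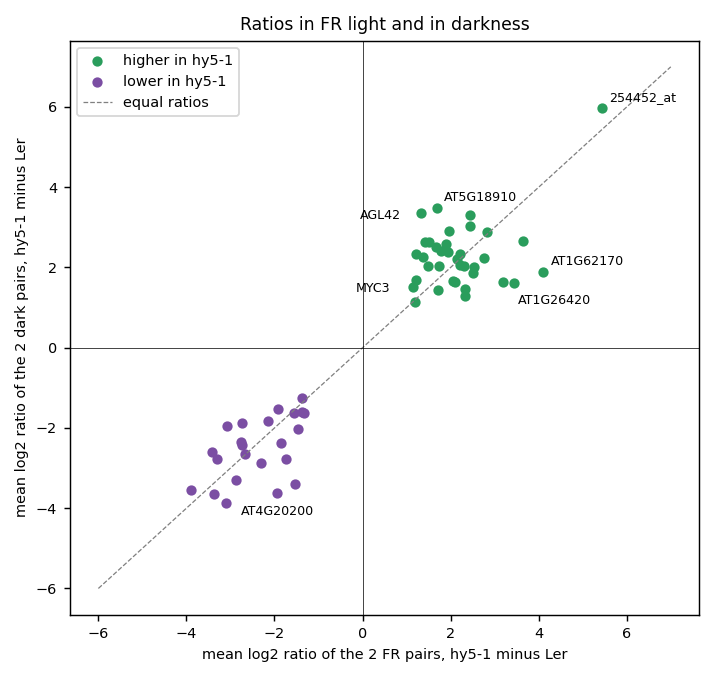
Mean log2 ratio of *hy5-1* to *Ler* in the 2 dark pairs (vertical axis) against that in the 2 FR pairs (horizontal axis) for the 59 probe sets, green where higher and violet where lower in *hy5-1*, with a dashed line of equal ratios. The gene *AGL42* lies above the line at 1.34 and 3.35, and AT1G62170 lies below it, with a dark mean of 1.89.

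A shared direction in pairs did not always set the genotypes apart within a light, because the rule compares arrays of equal MeJA dose. Both *hy5-1* arrays lay above both *Ler* arrays in either light for 27 of the 36 higher probe sets, and below them for 19 of the 23 lower ones. Over all probe sets, 2.77% and 1.96% were separate in these ways, but the rule favours separation, so nothing is read from the difference. AT3G26460 overlapped in both lights. Its values were 0.63 and -3.70 in *Ler* without and with MeJA under FR light, against 1.75 and -0.63 in *hy5-1*, and 0.92 and -3.15 against 1.98 and -0.92 in darkness. For AT2G14825 in darkness, treated *hy5-1* at 0.77 lay above untreated *Ler* at -0.77.

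The mean response to MeJA over both genotypes was not part of the rule, and it was fitted. Its error term, though, holds differences between the genotype ratios that the rule used. The choice therefore bears on the p values of the 59 probe sets, here and below, and on how many passed. In the limma model with a block for each combination of light and genotype, 995 of all probe sets passed at an adjusted p under 0.05 (4.37%), 614 of them higher with MeJA (2.7%) and 381 lower (1.68%). Of the 59 probe sets, 3 passed (5.08%), all lower with MeJA. This compares with 4.37% of all probe sets and 0% of the 410 past 2-fold in all 4 pairs with mixed directions. As the choice bears on these shares, nothing is read from them. The named one was AT3G26460, which fell by 3.42 on the log2 scale (standard error 0.395, adjusted p = 0.0255, limma), lower in 4 of 4 pairs. Its MeJA ratios were -4.33 and -2.38 in *Ler* and *hy5-1* under FR light and -4.07 and -2.90 in darkness. The others were 260851_at at -2.50 (standard error 0.31, adjusted p = 0.028) and 261868_s_at at -1.69 (standard error 0.20, adjusted p = 0.027), both lower in 4 of 4 pairs. With any 1 of the 4 MeJA pairs left out, which also lowers the residual degrees of freedom, none of the 3 passed, and at most 34 probe sets passed in all.

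The 4 MeJA ratios had the same sign for 17 of the 59 probe sets, with the 3 that passed among them. The share over all probe sets was not counted, so nothing is read from this number. Nearest to passing were the unlisted 261574_at at -1.10 (standard error 0.18, adjusted p = 0.0507, limma) and 260040_at at -2.13 (standard error 0.35, adjusted p = 0.0512, limma). Some named genes also leaned the same way in all 4 pairs without passing. AT2G14825, lower in *hy5-1*, had MeJA ratios of 1.16, 1.70, 2.91 and 3.45 in the order *Ler* FR, *hy5-1* FR, *Ler* dark and *hy5-1* dark, with a mean of 2.30 (standard error 0.44, adjusted p = 0.067, limma). AT2G13760, also lower in *hy5-1*, had 1.92, 0.82, 3.21 and 2.47 (mean 2.11, standard error 0.42, adjusted p = 0.073), and AT1G26420 had -0.39, -2.81, -2.32 and -2.58 (mean -2.02, standard error 0.46, adjusted p = 0.092). *MYC3* was close to even, with MeJA ratios of 0.10, -0.15, 0.36 and 0.22 and a mean of 0.13 (standard error 0.15, adjusted p = 0.65, limma). For 8 of the 59 probe sets (13.6%) no MeJA ratio reached 2-fold in any pair, beside 51.1% of all probe sets and 2.44% of those past 2-fold in all 4 pairs with mixed directions. The choice of large genotype ratios bears on these shares, so nothing is read from them. *MYC3* and AT4G20200 were among these 8.

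The MeJA ratios of some genes had opposite signs under FR light and in darkness. AT1G59950 had MeJA ratios of 2.56 and 2.57 in *Ler* and *hy5-1* under FR light and of -1.15 and -0.81 in darkness, and *AGL42* had 0.79 and 1.15 against -1.50 and -1.96. Within each light the ratios of both genotypes had the same sign. Their difference is that of 2 genotype ratios the rule used, so nothing is read from this agreement. A limma model of the interaction between MeJA and light, with 2 residual degrees of freedom, gave 0 calls (0%) after the same adjustment, while 1679 probe sets had an unadjusted p below 0.05. The adjusted p was 0.42 for AT1G59950 and 0.46 for *AGL42*.

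**Figure D5:**
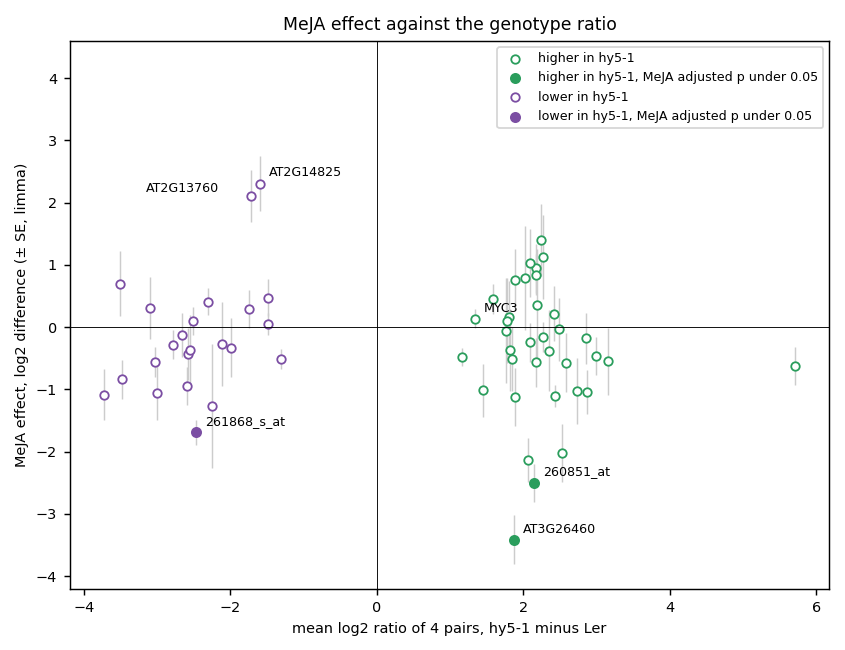
MeJA effect as a log2 difference from limma (vertical axis, bars are standard errors) against the mean log2 ratio of *hy5-1* to *Ler* over the 4 pairs (horizontal axis) for the 59 probe sets. The 3 filled points, AT3G26460 at -3.42, 260851_at at -2.50 and 261868_s_at at -1.69, passed at an adjusted p under 0.05.

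Of 478 entries in 17 lists, from light signaling and anthocyanin biosynthesis to markers of seed, root and pollen, 60 probe sets of single genes were measured, and *MYC3* was the only one to meet the rule. That is 1.67% of the 60, beside 0.259% of all probe sets, and with a single gene nothing is read from either share. It was 1 of 6 measured genes of jasmonate signaling and response. None of 3 genes of light signaling, 6 of anthocyanin and flavonoid biosynthesis, 4 of jasmonate biosynthesis, 5 of hypocotyl elongation and cell wall, 4 of photosynthesis and chlorophyll, 4 of glucosinolate biosynthesis or 3 of auxin response met it. The dihydroflavonol reductase gene *DFR* had ratios of -0.43, -0.71, 0.56 and 0.87 in the usual order, and the anthocyanin gene *UF3GT* had -0.22, 0.24, 1.34 and 1.92, so both differed in direction between pairs. All 4 ratios were above 0 for 7 of the 60 probe sets (11.7%) and below 0 for 2 (3.33%), against 9.14% and 7.46% of all probe sets. Nor did it take any gene of the lists of nutrient uptake (1 measured), pathogen defence (3), circadian clock (1), abscisic acid and cold (3) or reactive oxygen (3). Most listed genes had no named probe set here, so these counts speak for the measured genes alone. None of the 3 seed maturation, 2 root and 7 pollen and flower markers met the rule, nor did the 2 measured reference genes.

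At the edge of the rule, AT2G30925 with a smallest ratio of 1.00, AT1G21300 with 1.01 and AT3G42500 with 1.02 were the last higher genes inside it. Just outside were AT2G42860, AT3G05570 and *CYTOSLEEPER*, whose smallest ratios all came to 0.98 and whose means were 1.49, 1.38 and 1.79. On the lower side, AT5G17130 at 1.07 in size, AT1G57770 at 1.11 and AT3G42770 at 1.11 were inside, and AT3G32220 at 0.98, AT1G32040 at 0.97 and AT1G66630 at 0.94 were outside. The last of these had an even set of ratios, -0.94, -1.06, -1.17 and -1.31. Genes just inside and just outside the threshold thus had ratios of similar size.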

How the data were processed

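Total RNA of whole seedlings was hybridized to 8 ATH1 arrays (Affymetrix), a single one per condition, and arrays were grouped by their labels. The deposited log2 values were normalized by the authors with GeneSpring GX, and the submitters' processing notes name MAS5. The values of each probe set have a median of 0 over the 4 arrays of each light. For the log base and the scaling between arrays no source used here gives a value, and base 2 was taken. From the 22810 probe sets, 64 controls were left out. Genes were named through the array annotation, updated by gene identifiers to RefSeq (TAIR10.1). This paired 13436 probe sets with 1 gene, while 503 had several genes, 77 had no locus and 8730 were not listed. Log2 ratios of *hy5-1* to *Ler* were taken for the 4 pairs. Members and lists were chosen with earlier results of these data known. All members paired with 1 gene are named, with the genes nearest the threshold. Also named are 6 genes set beside them, *HYH*, *FHL*, *MYC3*, *MYC4*, *JMT* and *BGLU28*. Effects of genotype and MeJA were fitted in limma 3.58.1 (R 4.3.3) on all probe sets, without a variance trend, with 4 blocks of paired arrays, 3 residual degrees of freedom and Benjamini-Hochberg adjustment at 0.05. A fit with a term for MeJA by light was added after the data were seen. These fits were tested on simulated data. As nothing names separate cultures, the spread between pairs may be partly technical. Precision is limited by how few arrays there are. Sequences were not analysed here. Alternatives were other scalings, thresholds, a variance trend, another block, omitted probe sets and omitted pairs.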

Additional observations from a re-analysis of the deposited data

Results flagged for a closer look

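AT3G15860 and AT1G20290 had MeJA ratios past 2-fold in every pair, in opposite directions under FR light and in darkness. For AT3G15860 the log2 ratios of MeJA to none were 1.33 in *Ler* and 3.02 in *hy5-1* under FR light, against -1.58 and -1.36 in darkness. For AT1G20290 they were -2.21 and -1.36 under FR light, against 1.13 and 2.21 in darkness. The interaction of MeJA and light missed the threshold for both in limma, with an adjusted p of 0.538 for AT3G15860 and 0.495 for AT1G20290.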

How the results depend on the processing

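The number of probe sets higher and lower in *hy5-1* in all pairs was 36 and 23. It was 133 and 98 at a threshold of 1.5-fold, and 10 and 9 at 3-fold. Required in only 3 pairs, the rule kept 124 to 157 higher and 95 to 108 lower probe sets, which follows from the weaker rule. Centring each array on its median gave 32 and 25, and quantile normalization gave 30 and 30. These shared 32 and 23, and 30 and 23, with the 36 and 23. Among named genes, *AGL42*, *MYC3* and AT3G26460 were lost by quantile normalization, AT2G30925 by centring and AT1G21300 by both. The unlisted probe sets 262103_at and 252782_at were also lost by both. Without ties 33 and 22 remained, and without _s_at and _x_at probe sets 36 and 21. The latter left out 261868_s_at and AT2G13760, which was read by 264105_x_at. The genotype model called 0 probe sets under every alternative, with 1154 to 1641 at an unadjusted p under 0.05. Its smallest adjusted p values ran from 0.062 to 0.82. For MeJA the model called 995 probe sets, 2023 with a block for light only, and 0 to 34 with a pair left out. Among the members 3 passed, 6 with a variance trend, 5 without ties, 5 with a block for light only, where 261868_s_at did not (adjusted p = 0.0742, limma), and 0 to 0 with a pair left out. The cause of these shifts was not tested. No paired analysis by replicate number was possible because the labels give no replicate numbers, and the blocks pair arrays by condition. The planned search for promoter motifs was not run. Probe sets near background could not be told apart from bright ones.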
